A study of Arabidopsis thaliana with 8 samples.

Results

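Transcripts of the plastid genome were followed in Arabidopsis thaliana roots. They were taken as all probe sets annotated with exactly 1 gene code of the plastid genome (codes starting with ATCG), and 72 of the 22746 probe sets tested met that rule, each for a different gene. Another 8 plastid probe sets carry the codes of 2 genes each and were kept apart. The arrays covered roots of uri mutants without iron (uri −Fe), uri mutants with iron (uri +Fe), wild type without iron (WT −Fe) and wild type with iron (WT +Fe), with 2 biological replicates per group and 1 single-colour array per replicate. URI encodes a basic helix-loop-helix transcription factor that acts early in the iron-deficiency response. All plants grew for 14 days on half-strength Gamborg's B5 medium and then spent 3 days on agar with 300 µM of the iron chelator ferrozine (−Fe) or with 50 µM Fe(III)-EDTA (+Fe). The labels name neither the uri allele nor the number of roots pooled per sample. Every p-value below rests on the spread between arrays of 1 group, moderated across probe sets. This spread was pooled over the 4 groups in the main fit and over fewer groups in fits on part of the arrays.

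The plastid genome is a small, bacterial-type genome present in many copies per cell, also in the colourless plastids of roots. It encodes core subunits of the photosynthetic complexes, the NDH complex, part of the plastid ribosome and the core of a bacterial-type RNA polymerase, while most other subunits of the same complexes come from nuclear genes. Many of its genes are transcribed together in long units and cut apart afterwards, some from promoters of a nuclear-encoded phage-type polymerase. Iron enters at several points, because both photosystems, the cytochrome b6f complex and the NDH complex carry haem or iron-sulphur clusters.

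Values are log2 of the deposited array intensities. A level can be compared between arrays for 1 probe set but not between probe sets. The labelling protocol named in the labels primes from poly(A) tails, which most plastid transcripts lack or carry only briefly, so the signal need not track the full amount of each transcript. Symbols are given where the deposited annotation supports them, and 14 members are called by their gene code. The tests come from 1 linear model in limma over all 8 arrays, with p-values adjusted by the method of Benjamini and Hochberg over all 22746 probe sets. A transcript was called at an adjusted p under 0.05, and errors of log2 differences are moderated standard errors (SE).

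As a check of the arrays, the mutated gene URI had log2 levels of 8.52 and 8.62 in uri −Fe roots, 7.84 and 7.64 in uri +Fe roots, 8.64 and 8.60 in WT −Fe roots and 8.73 and 8.78 in WT +Fe roots. It separated the genotypes under +Fe only, so it does not check the label of the uri −Fe arrays, and every direction drawn from them refers to arrays labelled uri −Fe. The 9 root markers were above the lower quartile on every array. Correlation between replicates over all probe sets was 0.994 to 0.998. The serial numbers in the array titles form 1 consecutive block for the 4 −Fe arrays and another for the 4 +Fe arrays. The labels do not say what these numbers stand for, and anything that differed between the blocks cannot be told apart from the supply of iron.

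The median log2 level of the 72 plastid transcripts was 7.84 and 7.62 in uri −Fe roots, 7.46 and 7.29 in uri +Fe roots, 7.52 and 7.44 in WT −Fe roots and 7.79 and 7.54 in WT +Fe roots. By this median the uri −Fe arrays lay above the uri +Fe arrays, and both WT −Fe arrays lay below the WT +Fe arrays. With each transcript first centred on its own mean, the uri groups overlapped, at 0.20 and −0.01 in uri −Fe roots against 0.01 and −0.19 in uri +Fe roots. The centred medians of the wild-type groups did not overlap, at −0.11 and −0.08 in WT −Fe roots against 0.19 and −0.02 in WT +Fe roots. Replicates of 1 group also differed. In uri −Fe roots 59 of the 72 members were higher in replicate 1 than in replicate 2, in uri +Fe roots 54, in WT −Fe roots 30 and in WT +Fe roots 62, against 46.5% to 51.5% of all probe sets. The standard deviation of the array median within groups was 0.136, against shifts of the whole set between 0.15 and 0.20 in size in each pairwise comparison below. Of the 72 members, 10 had a mean below the average lower quartile of the arrays (4.65 to 4.80 across arrays), and their values are the least certain.

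**Figure D1:**
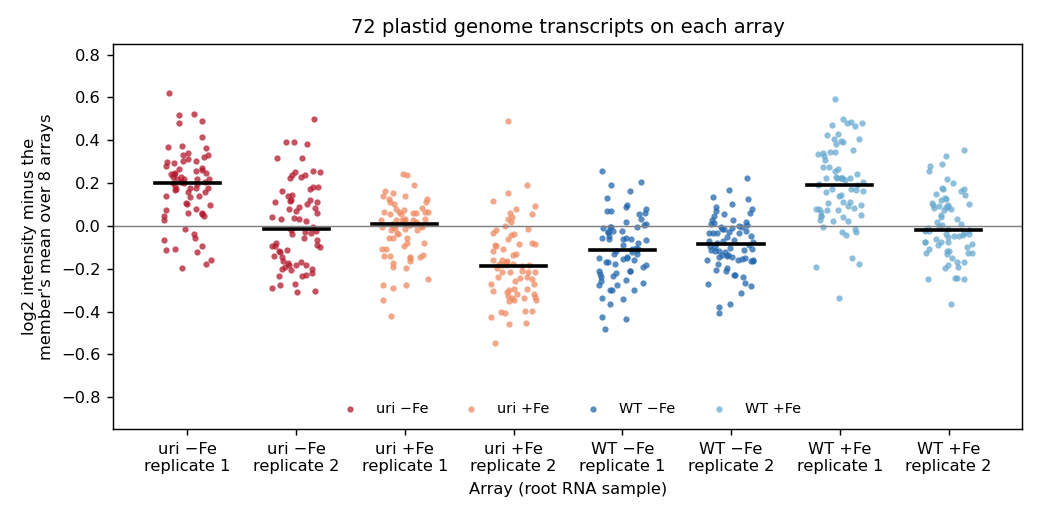
Each point is 1 of the 72 plastid transcripts on 1 array, as log2 intensity minus that transcript's mean over all 8 arrays, and each bar is the median of an array. The medians are 0.20 and −0.01 for uri −Fe, 0.01 and −0.19 for uri +Fe, −0.11 and −0.08 for WT −Fe and 0.19 and −0.02 for WT +Fe, so replicates of 1 group differ by up to about as much as the groups do.

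The transcript that responded most differently in the 2 genotypes was psbA (ATCG00020), which encodes the D1 reaction centre protein of photosystem II. Its log2 level was 9.21 and 9.02 in uri −Fe roots, 8.86 and 8.34 in uri +Fe roots, 8.31 and 8.41 in WT −Fe roots and 9.18 and 9.01 in WT +Fe roots. The uri −Fe and WT +Fe arrays were high, the uri +Fe and WT −Fe arrays were low, and neither iron comparison overlapped. It rose by 0.52 ± 0.161 in uri roots without iron (limma adjusted p = 0.0261) and fell by 0.74 ± 0.161 in wild-type roots without iron (adjusted p = 0.0171). The difference between these responses was 1.25 ± 0.228, or 2.38-fold (adjusted p = 0.00207, 95% interval 0.76 to 1.75). Its call in uri was lost when uri −Fe replicate 1 or uri +Fe replicate 2 was left out (adjusted p up to 0.224), and its call in wild type when any 1 of the 4 wild-type arrays was left out (adjusted p up to 0.157). The difference between responses was called in all 8 such fits.

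In uri roots, 11 of the 72 plastid transcripts (15.3%) rose without iron, against 15.1% of all probe sets, a share near the background. Limma called 0 members lower, against 18.0% of all probe sets. At an unadjusted p under 0.05 there were 20 members higher and 0 lower, against 4298 and 5100 of all 22746 probe sets. The median change of the members was 0.15, against −0.01 over all probe sets, and 61 of the 72 estimates were above 0. The count depended on single arrays. It was smaller without uri −Fe replicate 1, a fit that also called fewer of all probe sets higher. It was larger without uri +Fe replicate 1, where a member was also called lower and the calls over all probe sets changed little. The median change was 0.032 with uri −Fe replicate 1 left out and 0.30 with replicate 2 of that group left out. With replicate 1 of uri +Fe left out it was 0.28, and with its replicate 2 left out 0.097.

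Photosystem II supplied 6 of these 11 transcripts. The largest change was that of psbI (ATCG00080), a small core subunit, at 8.93 and 8.94 in uri −Fe roots against 8.42 and 8.01 in uri +Fe roots, a rise of 0.72 ± 0.155 (limma adjusted p = 0.00328). Next were ATCG00550, annotated only as a photosystem II component, at 0.66 ± 0.147, and psbL (ATCG00560), another small subunit, at 0.64 ± 0.123. ATCG00570, annotated as a cytochrome b559 subunit and so part of a haem protein, had 10.09 and 10.00 in uri −Fe roots and 9.42 and 9.45 in uri +Fe roots, a rise of 0.61 ± 0.111 (adjusted p = 0.00107). The replicates of ATCG00570 and psbL differed by far less than the groups did. With psbA and psbK (ATCG00070, 0.41 ± 0.138) they complete the 6, and the other 9 photosystem II members ranged from −0.02 for ATCG00700 to 0.38 for ATCG00220.

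The remaining 5 calls in uri came from other complexes. ATCG01050 and ATCG01090, both annotated as subunits of the plastid NDH complex, which passes electrons around photosystem I and in colourless plastids can serve respiration, rose by 0.63 ± 0.149 and 0.47 ± 0.116. The protease subunit gene clpP (ATCG00670), which tobacco needs to form shoots, rose by 0.47 ± 0.140. The large-subunit ribosomal protein gene rpl32 (ATCG01020) rose by 0.50 ± 0.136, and the small-subunit gene rps12 (ATCG00065), assembled by trans-splicing, by 0.33 ± 0.120 (limma adjusted p = 0.0496). All rps12 values are those of ATCG00065, which covers only a part of this gene. Its other parts, ATCG01230 and ATCG00905, share a probe set that was kept apart. Called members were absent from photosystem I (0 of 5, 1 at an unadjusted p under 0.05), cytochrome b6f (0 of 4, 2 unadjusted), ATP synthase (0 of 6, 0 unadjusted) and RNA polymerase (0 of 4, 1 unadjusted). The large subunit of Rubisco, rbcL (ATCG00490), changed by 0.06 ± 0.151, with 7.97 and 7.74 in uri −Fe roots against 8.003 and 7.58 in uri +Fe roots, which overlap.

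In wild-type roots, 4 of the 72 plastid transcripts (5.56%) fell without iron, against 2.14% of all probe sets. Limma called 0 higher, against 3.51% of all probe sets. At an unadjusted p under 0.05 there were 0 higher and 20 lower, against 2071 and 2047 of all 22746 probe sets. The median was −0.20, against −0.03 over all probe sets, and 12 of the 72 estimates were above 0. Calls were lost when any 1 of the wild-type arrays was left out, and such fits also called fewer of all probe sets lower. The median was −0.11 without WT +Fe replicate 1.

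Apart from psbA, the fallen transcripts were ATCG00340, psaC and rps12. ATCG00340, which the deposited annotation describes as a reaction centre subunit of photosystems I and II, had 9.56 and 9.52 in WT −Fe roots against 10.32 and 10.05 in WT +Fe roots, and fell by 0.65 ± 0.128 (limma adjusted p = 0.00991). The photosystem I gene psaC (ATCG01060), whose product binds iron-sulphur clusters, had 4.27 and 4.40 in WT −Fe roots against 4.99 and 4.76 in WT +Fe roots. It fell by 0.54 ± 0.131 (adjusted p = 0.0291), but its mean over all arrays was among the 10 below the lower quartile. The gene rps12 had 6.34 and 6.29 in WT −Fe roots against 6.87 and 6.70 in WT +Fe roots and fell by 0.46 ± 0.120 (adjusted p = 0.0414). In each of these 3 the WT −Fe arrays were the lower ones and the groups did not overlap.

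By role, photosystem I had the lowest median in wild type, −0.46 over 5 members, with psaJ (a small subunit) at −0.46 ± 0.186 and psaA (ATCG00350, a reaction centre core subunit) at −0.33 ± 0.137, neither of them called. Medians were −0.24 for 15 photosystem II members, −0.27 for 6 ATP synthase members, −0.14 for 4 cytochrome b6f members, −0.11 for 10 NDH members and −0.13 for 18 ribosomal proteins. Beside psaJ, the largest estimates among uncalled members were those of ndhJ (ATCG00420, an NDH subunit) at −0.52 ± 0.150 (limma adjusted p = 0.0652), ATCG01040 (annotated as a hypothetical protein) at −0.48 ± 0.173, the ribosomal protein gene rpl20 at −0.45 ± 0.157 and psbC, the CP43 antenna subunit of photosystem II, at −0.43 ± 0.127. The value for rbcL was −0.21 ± 0.151, with 7.89 and 8.01 in WT −Fe roots against 8.24 and 8.07 in WT +Fe roots.

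**Figure D2:**
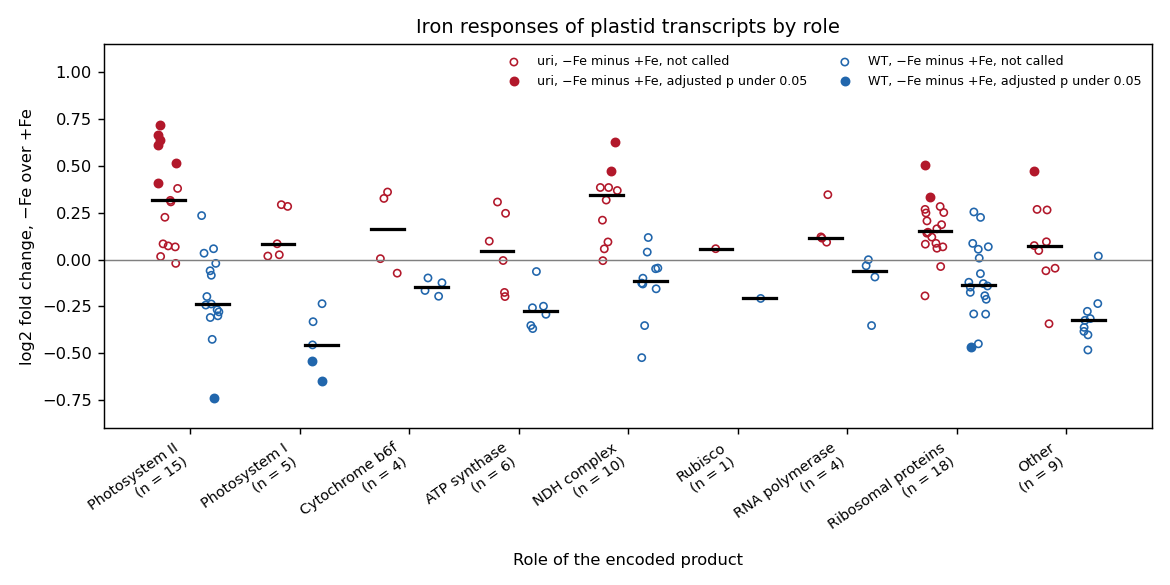
Each point is the log2 fold change of 1 plastid transcript, −Fe over +Fe, with uri left of WT within each role of the encoded product. Filled points passed an adjusted p under 0.05 (11 in uri, 4 in WT), and bars are group medians, which lie at 0.32 in uri and −0.24 in WT for photosystem II and at 0.08 in uri and −0.46 in WT for photosystem I.

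The design allows a direct test of whether uri and wild-type roots responded differently to iron supply, as the uri response minus the wild-type response. It shares all its arrays with the 2 comparisons above and is therefore no separate evidence for them. Of the 72 plastid transcripts, 14 (19.4%) had a more positive response in uri, against 9.60% of all probe sets. Limma called 0 more negative, against 10.8% of all probe sets. At an unadjusted p under 0.05 there were 28 more positive and 0 more negative, against 3289 and 3893 of all 22746 probe sets. The median difference was 0.39, against 0.00 over all probe sets, and 66 of the 72 estimates were above 0. The count was smaller without either WT −Fe replicate, uri −Fe replicate 1 or WT +Fe replicate 1, fits that also called fewer of all probe sets. It was larger without uri +Fe replicate 1, a fit that also called more of all probe sets.

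The 14 transcripts came from photosystem II (5 of 15), photosystem I (3 of 5), the NDH complex (3 of 10), the ribosomal proteins (2 of 18) and clpP. Limma called 0 of 6 ATP synthase, 0 of 4 cytochrome b6f and 0 of 4 RNA polymerase members, nor rbcL. Of photosystem II they include psbA, psbI at 0.96 ± 0.219, ATCG00570 at 0.88 ± 0.157, psbL at 0.88 ± 0.174 and ATCG00550 at 0.86 ± 0.207. Of photosystem I they include psaC at 0.83 ± 0.185, ATCG00340 at 0.67 ± 0.182 and psaA at 0.62 ± 0.194 (limma adjusted p = 0.0411). The NDH complex supplied ndhJ at 0.73 ± 0.211, ATCG01050 at 0.68 ± 0.211 and ATCG01090 at 0.57 ± 0.164. The others were clpP at 0.88 ± 0.197, rps12 at 0.80 ± 0.170 and rpl32 at 0.65 ± 0.193.

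These differences were sorted by which of the 2 iron responses was called, which need not separate kinds of response. Over all probe sets, 15.1% were called higher in uri without iron and 2.14% lower in wild type. The clpP estimates, for example, were 0.47 in uri and −0.40 in wild type, with only the first called. For psbI, psbL, ATCG00570, ATCG00550, ATCG01050, ATCG01090, rpl32 and clpP only the uri response was called, and the wild-type estimates were between −0.40 and −0.05. For psaC and ATCG00340 only the wild-type fall was called, with uri estimates of 0.29 ± 0.131 and 0.03 ± 0.128. For psbA and rps12 both were called, in opposite directions. The shared probe set of ATCG01230 and ATCG00905, the other parts of rps12, had neither response called. Its estimates were 0.12 ± 0.147 in uri and −0.05 ± 0.147 in wild type, and its difference between responses, 0.17 ± 0.208, was not called. For ndhJ and psaA neither was called by itself. Leaving out each array in turn kept the difference called in all 8 fits for psbA, psbI, ATCG00570, clpP, psbL, psaC and rps12, whereas the call of psaA was kept in 2 of 8.

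The protease subunit gene clpP had 10.23 and 10.14 in uri −Fe roots, 9.87 and 9.55 in uri +Fe roots, 9.67 and 9.57 in WT −Fe roots and 10.16 and 9.89 in WT +Fe roots. The gene rps12 had 6.74 and 6.58 in uri −Fe roots, 6.38 and 6.28 in uri +Fe roots, 6.34 and 6.29 in WT −Fe roots and 6.87 and 6.70 in WT +Fe roots. In both, uri −Fe and WT +Fe were the high groups and uri +Fe and WT −Fe the low ones. The psbL levels differed in shape, at 7.08 and 7.08 in uri −Fe roots, 6.48 and 6.41 in uri +Fe roots, 6.15 and 6.43 in WT −Fe roots and 6.54 and 6.51 in WT +Fe roots. There the uri −Fe arrays stood above the arrays of all other groups.

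**Figure D3:**
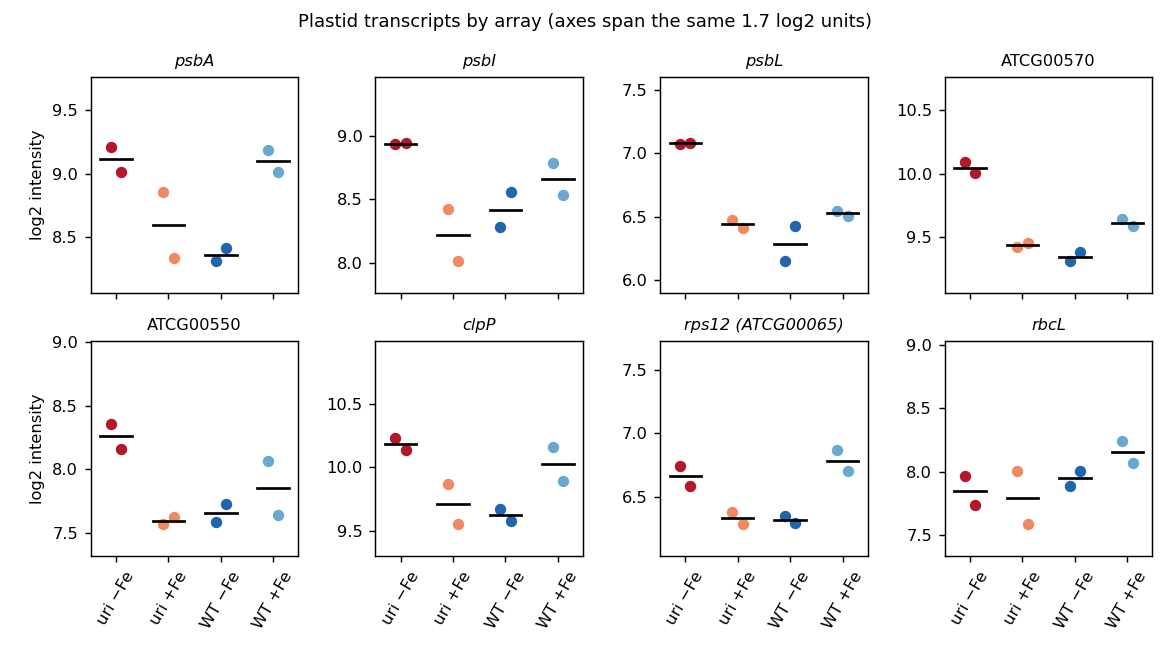
Log2 intensity of 8 plastid transcripts on each array (points) with group means (bars), in the order uri −Fe, uri +Fe, WT −Fe and WT +Fe, with all panels spanning the same log2 range. In psbA, clpP and rps12 the uri −Fe and WT +Fe groups are high, in psbL and ATCG00570 uri −Fe stands alone, and in rbcL the uri groups overlap.

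Set against each other under −Fe, uri roots had 12 of the 72 plastid transcripts (16.7%) higher than wild-type roots, against 12.2% of all probe sets. Limma called 0 lower, against 14.4% of all probe sets. At an unadjusted p under 0.05 there were 20 higher and 0 lower, against 3921 and 4370 of all 22746 probe sets. The median difference was 0.20, against 0.02 over all probe sets, and 56 of the 72 estimates were above 0. The largest were psbL at 0.79 ± 0.123 (limma adjusted p = 0.00042), psbA at 0.75 ± 0.161 and ATCG00570 at 0.70 ± 0.111 (adjusted p = 0.000505). They were followed by ATCG00550 at 0.60 ± 0.147, clpP at 0.56 ± 0.140, ATCG01050 at 0.56 ± 0.149, ATCG00580 (also annotated as cytochrome b559) at 0.52 ± 0.151 and psbI at 0.52 ± 0.155.

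The remaining 4 were atpB (ATCG00480, the catalytic subunit of the ATP synthase) at 0.46 ± 0.116, ATCG00340 at 0.46 ± 0.128, psaC at 0.42 ± 0.131 and petB (ATCG00720, cytochrome b6) at 0.41 ± 0.132 (limma adjusted p = 0.0363). The atpB levels were 11.87 and 11.92 in uri −Fe roots against 11.48 and 11.39 in WT −Fe roots, without overlap. No ribosomal protein was called (0 of 18, 2 at an unadjusted p under 0.05), although rps12 (0.34 ± 0.120, adjusted p = 0.0519) was close to the threshold. The acetyl-CoA carboxylase gene accD (−0.19 ± 0.144), the intron maturase gene matK (−0.13 ± 0.147) and rbcL (−0.10 ± 0.151) had estimates below 0. The count was smaller when any 1 of the 4 −Fe arrays was left out, fits that also called fewer of all probe sets higher. The calls of psbL, psbA and ATCG00570 held whichever of the 8 arrays was left out. The median difference was 0.12 without uri −Fe replicate 1.

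Under +Fe, 1 of the 72 plastid transcripts (1.39%) was lower in uri than in wild-type roots, against 1.78% of all probe sets, and limma called 0 higher, against 1.34% of all probe sets. At an unadjusted p under 0.05 there were 14 lower and 0 higher, against 1811 and 1837 of all 22746 probe sets. The called transcript was ndhJ, at 5.35 and 5.18 in uri +Fe roots against 5.98 and 5.79 in WT +Fe roots, a difference of −0.62 ± 0.150 (limma adjusted p = 0.0453). Its call was lost without any 1 of the 4 wild-type arrays or without uri +Fe replicate 2. With uri +Fe replicate 1 left out, more members were called lower, as were more of all probe sets. The median difference was −0.20, against 0.01 over all probe sets, with 8 of the 72 estimates above 0. It was −0.086 without WT +Fe replicate 1 and −0.090 without uri +Fe replicate 2. Among uncalled members rpl20 had −0.56 ± 0.157, ATCG01040 −0.55 ± 0.173, psbA −0.50 ± 0.161 and rps12 −0.45 ± 0.120.

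Members that are transcribed together in 1 unit of the plastid genome were set side by side, and differences between members of a unit were not tested. Over all probe sets, 12.2% were higher in uri than in wild type under −Fe and 15.1% rose in uri without iron. The response was more positive in uri for 9.60% of all probe sets. In the unit of psbL, which joins ATCG00580, ATCG00570, psbL and ATCG00550, 4 of 4 members were higher in uri than in wild-type roots under −Fe, with a median difference of 0.65. The same unit had 3 of 4 called in the uri iron response and in the difference between responses, where its median was 0.87 and ATCG00580 stood at 0.40 ± 0.213. The psaC unit mixes NDH and photosystem I genes, and 3 of its 7 members were called in the difference between responses, from 0.04 ± 0.211 for ndhH to 0.83 for psaC. In the psaA unit ATCG00340 and psaA were called and the ribosomal protein gene rps14, which lies behind them, stood at 0.20 ± 0.186.

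The rpl23 unit is a long unit of ribosomal protein genes that ends with the polymerase gene rpoA. Limma called 0 of its 9 members in each of the 5 comparisons, and 0 of 9 passed an unadjusted p under 0.05. Over all probe sets, from 1.34% to 18.0% were called in each direction of these comparisons. The median difference between responses in the rpl23 unit was 0.12, with members from −0.14 for rps3 to 0.45 for rpl14. The rpoA level was 10.16 and 9.77 in uri −Fe roots, 9.95 and 9.75 in uri +Fe roots, 10.12 and 9.79 in WT −Fe roots and 10.18 and 9.74 in WT +Fe roots. Its 4 groups overlap, and replicate 1 was the higher in each. The psbD unit, which encodes the D2 and CP43 proteins of photosystem II, also had 0 of 3 called in any comparison, with 0 to 2 at an unadjusted p under 0.05. Probe sets of 1 unit can hybridise to the same precursor, so its members are not independent measurements.

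**Figure D4:**
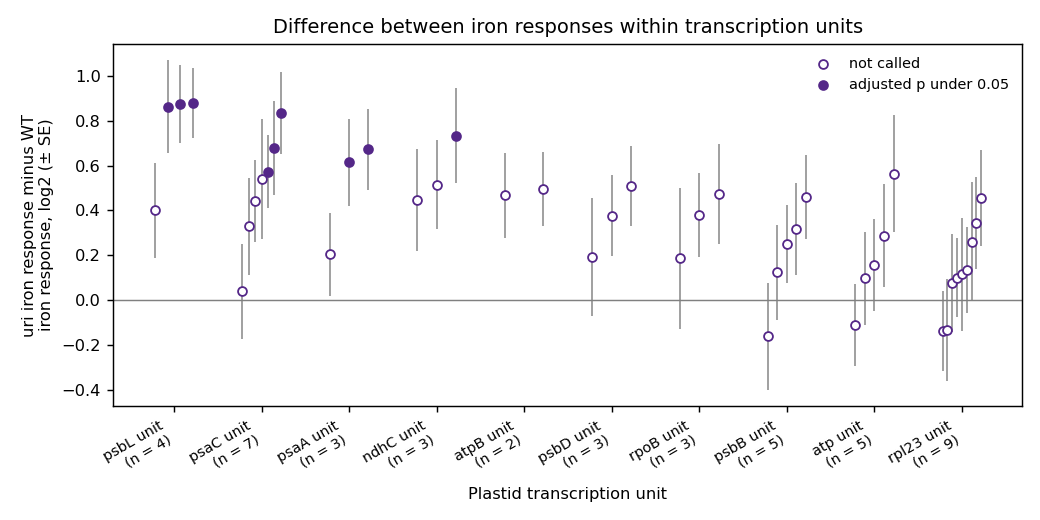
The uri iron response minus the WT iron response (log2, ± SE) for plastid transcripts grouped by transcription unit, with members sorted by value within a unit and filled where the adjusted p was under 0.05. Called members lie in the psbL, psaC, psaA and ndhC units, and all 9 members of the rpl23 unit are open and lie between −0.14 and 0.45.

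Grouped more broadly, 11 of 41 members for photosynthetic and NDH subunits (26.8%) were called in the difference between responses, with a median of 0.46. Of 23 members for RNA polymerase, ribosomal proteins and matK 2 were called (8.7%), with a median of 0.26. Over all probe sets 9.60% were more positive in uri, so the second share is near the background. This contrast between the groups was not tested. The 4 core genes of the bacterial-type polymerase were called in no comparison by limma, with 0 or 1 of 4 at an unadjusted p under 0.05 in each. The catalytic-core gene rpoB had 3.90 and 3.98 in uri −Fe roots, 3.61 and 3.59 in uri +Fe roots, 3.78 and 3.86 in WT −Fe roots and 4.03 and 3.68 in WT +Fe roots, all below the lower quartile of the arrays. Of 5 members known to have a promoter of the phage-type polymerase (accD, rpoB, rpoC1, rpoC2 and clpP), clpP was the 1 called in any comparison, and accD changed by −0.06 ± 0.144 in uri and −0.28 ± 0.144 in wild type.

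Nuclear genes whose products work with the plastid-encoded ones were listed for comparison. Their counts and those of the markers below stand beside these shares of all probe sets. Without iron 15.1% rose and 18.0% fell in uri, and 3.51% rose and 2.14% fell in wild type. Under −Fe 12.2% were higher and 14.4% lower in uri than in wild type. The response was more positive in uri for 9.60% and more negative for 10.8%. Subunits of the photosystems, cytochrome b6f, ATP synthase and Rubisco that are encoded in the nucleus had larger median changes than the plastid transcripts, a contrast that was not tested. In uri roots 12 of 25 measured genes rose and 1 fell without iron (median 0.35), and in wild-type roots 0 rose and 15 fell (median −0.74). The responses differed in 19 of 25, all more positive in uri, with a median of 1.18. For the photosystem II extrinsic protein gene PSBQ2 the levels were 8.36 and 8.17 in uri −Fe roots, 7.14 and 7.27 in uri +Fe roots, 6.42 and 6.54 in WT −Fe roots and 7.44 and 7.77 in WT +Fe roots. It rose by 1.06 ± 0.137 in uri and fell by 1.13 ± 0.137 in wild type (limma adjusted p = 9.82e-05 and 0.000313).

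Nuclear genes for plastid ribosomal proteins followed the same directions, with 10 of 21 higher and 0 lower in uri (median 0.23), and 0 higher and 2 lower in wild type (median −0.33). PRPL24 rose by 0.46 ± 0.153 in uri and fell by 0.62 ± 0.153 in wild type. Under −Fe, 11 of the 21 were higher in uri than in wild type (median 0.39), against 12.2% of all probe sets. Of the 18 plastid-encoded ribosomal proteins 13 had estimates above 0 (median 0.11), 2 passed an unadjusted p under 0.05 and limma called 0. The difference between these lists was not tested. Of 12 nuclear NDH subunits 2 rose in uri and 1 fell in wild type, and NDHS, which forms the ferredoxin-binding site of the complex, rose by 0.95 ± 0.131 in uri and fell by 0.49 ± 0.131 in wild type. From 5 to 7 of these 12 genes lay below the lower quartile of each array.

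Of 8 nuclear genes for sigma factors, which direct the bacterial-type polymerase to its promoters, and for phage-type polymerases, SIG5 changed most. SIG5, known as a stress-responsive factor of the psbD promoter, had 7.92 and 8.14 in uri −Fe roots, 8.35 and 8.25 in uri +Fe roots, 8.12 and 7.99 in WT −Fe roots and 7.13 and 7.20 in WT +Fe roots. The WT +Fe arrays alone were low. SIG5 rose by 0.89 ± 0.123 in wild type without iron (limma adjusted p = 0.000824), its uri estimate was −0.27 ± 0.123, and uri exceeded wild type by 1.13 ± 0.123 under +Fe. Beside it, the plastid genes of the psbD unit gave 0 calls. In uri, SIG4 rose by 0.35 ± 0.124 and the plastid phage-type polymerase gene RPOTP by 0.33 ± 0.110.

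Proteins bound to the bacterial-type polymerase and RNA-processing factors were also listed. Of 12 measured polymerase-associated genes, limma called 0 higher and 1 lower in uri without iron, with 0 higher and 4 lower at an unadjusted p under 0.05. FLN1 fell by 0.55 ± 0.139 in uri, and PTAC10 fell by 0.62 ± 0.124 in wild type. Between genotypes under −Fe 4 of them were higher in uri, among them PTAC10 at 0.73 ± 0.124 and PTAC2 at 0.71 ± 0.127. Of 12 genes for RNA processing and decay, 6 were higher in uri under −Fe, including the exoribonuclease gene RNR1 at 0.70 ± 0.142 and CSP41B at 0.66 ± 0.127, and RNR1 and the RNA-binding protein gene CP29A rose in uri without iron by 0.49 ± 0.142 and 0.43 ± 0.123. Of 6 regulators of chloroplast development 0 were called by limma in any comparison, with 0 or 1 at an unadjusted p under 0.05 in each.

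**Figure D5:**
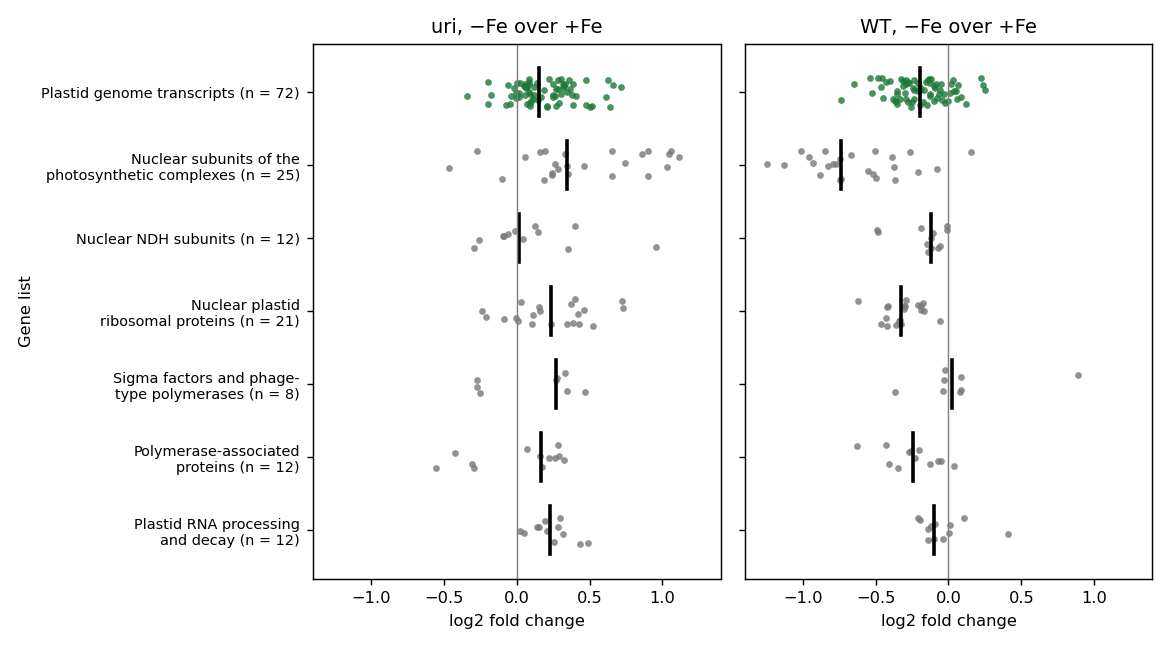
Log2 fold changes, −Fe over +Fe, of the 72 plastid transcripts (green) and of nuclear gene lists for the same complexes and for plastid gene expression (grey), in uri (left) and WT (right), with bars at the medians. The plastid median is 0.15 in uri and −0.20 in WT, and the median of the nuclear photosynthetic subunits is 0.35 in uri and −0.74 in WT.

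Markers of green tissue were set beside the plastid transcripts. Of 6 measured, 3 rose in uri and 3 fell in wild type without iron, against 15.1% and 2.14% of all probe sets. Under −Fe 5 were higher in uri than in wild type, against 12.2% of all probe sets. Their summed intensity was 3660 and 3258 in uri −Fe roots, 1832 and 1762 in uri +Fe roots, 1201 and 1235 in WT −Fe roots and 1816 and 2000 in WT +Fe roots. The summed intensity of the plastid transcripts was 31102 and 27564 in uri −Fe roots, 26468 and 23090 in uri +Fe roots, 23898 and 24045 in WT −Fe roots and 30411 and 26023 in WT +Fe roots. Both sums were higher without iron in uri roots and lower without iron in wild-type roots. Under −Fe both were higher in uri than in wild type, and under +Fe both overlapped between the genotypes. Between uri −Fe and WT +Fe roots, a pair compared nowhere else here, the marker sum was higher in uri −Fe and the plastid sums overlapped. Of 5 shoot organ markers that do not refer to chloroplasts (STM, GL1, TMM, FAMA and SPCH) limma called 0 in any comparison, with 1 or 2 at an unadjusted p under 0.05 in each. Their summed intensity stayed between 93.8 and 113, and 3 to 5 of the 5 lay below the lower quartile of each array. The 9 root markers summed to 7518 and 6993 in uri −Fe roots, 7921 and 6801 in uri +Fe roots, 9975 and 10503 in WT −Fe roots and 9627 and 9413 in WT +Fe roots. This sum, which the brightest markers dominate, was lower on all 4 uri arrays than on any WT array. The median log2 level of the 9 markers overlapped between the genotypes, at 8.64 and 8.48 in uri −Fe roots against 8.57 and 8.35 in WT −Fe roots, and at 8.62 and 8.38 in uri +Fe roots against 8.54 and 8.15 in WT +Fe roots. Under −Fe limma called 4 of the 9 lower and 1 higher in uri than in wild type. Whether green cells, or the share of any cell type in the sample, take part in the plastid values was not tested, and in bulk roots fewer cells of a type and less RNA per cell cannot be told apart.

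Transcripts of the mitochondrial genome, which also largely lack lasting poly(A) tails, were measured by 49 single-gene probe sets. In uri without iron 4 rose (8.16%, against 15.1% of all probe sets) and 1 fell (2.04%, against 18.0%), with a median of 0.05. In wild type 0 were called by limma (median −0.04, 3 at an unadjusted p under 0.05), against 3.51% of all probe sets higher and 2.14% lower. In the difference between responses 1 was more positive in uri and 1 more negative, with a median of 0.11, against 14, 0 and 0.39 for the 72 plastid transcripts. Over all probe sets 9.60% were more positive in uri and 10.8% more negative. From 21 to 27 of the 49 lay below the lower quartile of each array, compared with 8 to 10 of the 72 plastid transcripts. The difference between the organelles was not tested.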

How the data were processed

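Roots of 4 groups (uri −Fe, uri +Fe, WT −Fe, WT +Fe) were measured with 2 arrays each. The deposited values are probe-set intensities that the authors made with RMA, per the submitters' processing notes, which state no version; they are linear, with array medians from 119.09 to 128.06. A workbook of the same arrays differed by at most 5e-06, and its annotation was joined by its own probe-set column, because 44 lines carry another identifier. Of 22810 probe sets, 64 controls were left out. The analysis took log2, fitted 1 mean per group with limma 3.58.1 (lmFit and eBayes, R 4.3.3) and tested 5 two-sided contrasts, each adjusted over 22746 probe sets. The fit left 4 residual degrees of freedom, and moderation added 8.32. The number of arrays limits the precision. No detection call and no filter on dim probe sets was used.

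The members and all gene lists were chosen with earlier results of these data known. Symbols of plastid genes come from the deposited annotation, because the gene table used for names does not pair the ATCG codes with symbols; transcription units and promoter types are textbook assignments. Named in each comparison were fixed genes (psbA, rbcL, psaA, ATCG00340, atpB, rpoB, accD, clpP, matK and ATCG01010), up to 10 called members in each direction, up to 3 per role and up to 4 per nuclear list, and a selection of these is printed. The procedure was tested on simulated arrays. Alternatives were 2 other scalings, a filter on dim probe sets, a replicate block, trended robust moderation, fits on only the arrays compared, the workbook values and leaving out each array.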

Additional observations from a re-analysis of the deposited data

Results flagged for a closer look

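For 14 plastid transcripts the iron responses of uri and wild-type roots differed by the test of the difference itself (limma, uri response minus wild-type response, adjusted p under 0.05). In log2 units these were psbA at 1.25, psbI at 0.96, ATCG00570 at 0.88, clpP at 0.88, psbL at 0.88, ATCG00550 at 0.86, psaC at 0.83, rps12 at 0.80, ndhJ at 0.73, ATCG01050 at 0.68, ATCG00340 at 0.67, rpl32 at 0.65, psaA at 0.62 and ATCG01090 at 0.57. The share, 19.4% of 72 members, stands beside 9.60% of all probe sets with a more positive response in uri. No group had enough arrays for a test of single outlying arrays.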

How the results depend on the processing

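The 5 medians of the plastid transcripts kept their sign under each alternative run, and fits on only the arrays compared were not run for the difference between responses, which uses all 8; no named transcript that had been called changed direction. With each array centred on its median, 17 members rose in uri without iron, against 17.9% of all probe sets. Under +Fe, the count lower in uri was 2 with dim probe sets left out, 3 with the replicate block, 3 with trended robust moderation and 0 with only the arrays compared. Over all probe sets these fits called 2.78%, 1.53%, 2.68% and 0.681% lower. The block gave 12 members higher in the uri iron response, against 14.6% of all probe sets. For uri against wild type under −Fe it gave 13 higher, against 11.6%. It gave 14 for the difference between responses, against 9%, and 4 lower in wild type, against 1.87%. Replicate differences of the 6 pairs of groups correlated at −0.22 to 0.16 over all probe sets and at −0.059 to 0.36 over the 72 members. Not every pair exceeded 0.1 on either basis, so the numbers were not taken to pair arrays. Leaving out each array in turn gave 5 to 17 higher and 0 to 1 lower in uri (median 0.032 to 0.30), 0 to 5 lower in wild type (median −0.29 to −0.11), 7 to 23 for the difference between responses (median 0.27 to 0.49), 4 to 15 higher in uri under −Fe (median 0.12 to 0.27) and 0 to 6 lower in uri under +Fe (median −0.26 to −0.086). A lone array left in a group was assumed to vary like the other groups. Calls near the threshold were lost with at least 1 alternative other than a left-out array: rps12 in wild type (adjusted p = 0.0508 with centred arrays, 0.0574 with trended moderation) and in uri (0.0826 with trended moderation, 0.0946 with only the arrays compared), psbK in uri (0.0514 with the block, 0.0623 with only the arrays compared), psbA in uri (0.0598 with only the arrays compared), psaA in the difference between responses (0.0523 with the block, 0.0689 with trended moderation) and ndhJ under +Fe (0.0814 with only the arrays compared). Such alternatives also gained calls. In uri without iron, rpoB was called with centred arrays (limma adjusted p = 0.0361). There petB was called with centred arrays, the dim filter, the block or trended moderation (0.0183 to 0.0413). The difference for atpB was called with either scaling, the dim filter or trended moderation (0.0110 to 0.0368). Under −Fe psbD was called higher in uri with either scaling, the dim filter or only the arrays compared. The cause of these changes was not tested. No detection call shows which of the 10 dim members exceed background. The dim filter removed psaC, so its calls in wild type, under −Fe and in the difference between responses are absent from that fit.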

Other observations

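The 8 plastid probe sets that carry the codes of 2 genes each, mostly the paired copies in the inverted repeat, were called in no comparison by limma, with 0 to 3 of 8 at an unadjusted p under 0.05. Their medians were 0.09 for the iron response of uri, −0.13 for that of wild type and 0.25 for the difference between them. The probe set of ATCG00900 and ATCG01240, chosen after its values were seen, had 11.41 and 11.37 in uri −Fe roots, 11.05 and 10.97 in uri +Fe roots, 11.24 and 11.12 in WT −Fe roots and 11.49 and 11.01 in WT +Fe roots. There the WT +Fe replicates differed by more than the uri groups did.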
